A study of Homo sapiens with 27 samples.

Results

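The genes described here were 10 regulators of the passage from G1 into S phase, followed in RM82 cells, an established human Ewing sarcoma cell line. They were chosen by symbol: the E cyclins CCNE1 and CCNE2, the kinases CDK2, CDK4 and CDK6, the phosphatase CDC25A, the inhibitor CDKN1B, the pocket protein RB1 and the factors E2F1 and E2F3. All transcripts of these symbols in the count files were taken. This gave 48 transcripts of 9 genes, out of 93530 transcripts and 18776 genes with a count. None of the 48 was a transcript of CDK6, which entered only the promoter search below. In the study, 3 RM82 libraries carry the label SGC-CLK-1, an inhibitor of the CDC-like kinases (CLKs) that phosphorylate splicing factors, and 3 carry the label DMSO, the solvent control. Both groups were the same line in the same medium, the exposure lasted 24 h, and the dose is not given in the sources used here. The study's general statement is that experiments were repeated independently, but the labels do not say for these libraries whether replicates were separate cultures, so that p-values measure the spread between these libraries. Nanopore reads of cDNA tagged with unique molecular identifiers (UMIs) had been mapped to transcripts and counted as UMIs per transcript. The treatment labels are in doubt. The transcript ENST00000645766 of FRG2, which the study displays by treatment, was counted 64, 44 and 60 times in the SGC-CLK-1-labelled libraries (replicates 1 to 3) and 96, 88 and 95 times with the DMSO label. Every value of the former group was lower than every value of the latter, also in CPM, whereas in the study's display the treated libraries are the higher ones. The deposited labels and that display thus run in opposite directions. TLE5, the other gene displayed in this way, gave no direction, since its transcript ENST00000221561 had 11, 8 and 7 counts against 10, 10 and 12 and the groups overlapped in CPM, and which label holds could not be settled here. The groups are named by the deposited labels throughout, and if these were exchanged, every direction given below would turn.

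The total count was 666702, 362826 and 373004 UMIs for replicates 1, 2 and 3 with the SGC-CLK-1 label and 416352, 523456 and 372876 for replicates 1, 2 and 3 with the DMSO label. The 9 genes together held only 1161 counts, and 33 of their 48 transcripts had fewer than 10 counts over the 6 libraries. At these depths 3 counts, the limit that a count of 0 allows, correspond to 4.50 to 8.27 CPM (counts scaled to the library total) in a single library, for counting error only. Of 11 Ewing sarcoma marker genes, 9 were listed, with STEAP2 the most abundant at a mean of 1374 CPM, while NKX2-2 and FLI1 were not listed. Summed over the marker list, the level lay between 2044 and 2599 CPM in every library. Most of this sum was STEAP2 (1002 to 1604 CPM) and BCL11B (413 to 625 CPM). EWSR1, CD99 and STEAP1 lay at 61.5 to 277 CPM. PRKCB, CCK, LIPI and NR0B1 lay at 0 to 42.9 CPM, all under the mean of the plasma cell gene CD38, so the sum does not speak for each marker. Markers of the other human lines of the study were lower in sum. Of 9 plasma cell genes, 5 were listed, summing to 59.0 to 91.2 CPM, and CD38 at a mean of 73.0 CPM was the most abundant. SDC1, TNFRSF17, MZB1 and IRF4 were not listed. Of 10 T cell genes, 4 were listed, summing to 13.5 to 40.2 CPM, and PTPRC at a mean of 16.7 CPM was the most abundant. CD3D, CD3E, CD2, TRBC1, TRBC2 and CD28 were not listed. The T cell gene CD3G was at 3.0, 2.76 and 2.68 CPM in the SGC-CLK-1-labelled libraries and at 14.4, 15.3 and 16.1 CPM in the DMSO-labelled ones, with no overlap. PTPRC did not follow it, with 10.5, 22.05 and 32.2 CPM against 19.2, 5.73 and 10.7 CPM and overlap between the groups. CD3G was singled out for its values, and its part in the results below was not tested.

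In resting or early G1 cells, RB1 binds E2F factors and holds their target genes down. D cyclins with CDK4 or CDK6, and then E cyclins with CDK2, phosphorylate RB1, which frees E2F, and E2F activates genes for DNA replication as well as CCNE1, CCNE2, CDC25A and E2F1 themselves. CDC25A removes inhibitory phosphates from CDK2, whereas CDKN1B (p27) binds cyclin E with CDK2 and blocks the kinase. In Ewing sarcoma cyclin D1 is commonly high, and some tumours have lost CDKN2A, the gene of a CDK4 inhibitor.

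Because E2F factors act on the promoters of several of these genes, the promoters that hold an E2F word are shown. The words searched were TTTCCCGC, TTTCGCGC, TTTGCCGC and TTTGGCGC, on both strands, in the 250 bases before the start of each gene in the RefSeq promoter table (GRCh38.p14). A window was given for 8 of the 10 genes (none for CCNE2 and CDK2), and E2F3 and CDK6 had 2 windows each. Of the 8, 3 held a word in a window, E2F1, E2F3 and CDC25A, against 928 of 27305 genes (3.40%) with a window of this length. In the lists described below, the search found a word for 10 of 30 E2F target genes (33.3%) and 4 of 26 other G1/S control genes (15.4%). The words are in capitals, each sequence is written 5′ to 3′ along the strand of its gene, and a match describes letters only.
E2F1 promoter, chr20:33686386-33686635, minus strand: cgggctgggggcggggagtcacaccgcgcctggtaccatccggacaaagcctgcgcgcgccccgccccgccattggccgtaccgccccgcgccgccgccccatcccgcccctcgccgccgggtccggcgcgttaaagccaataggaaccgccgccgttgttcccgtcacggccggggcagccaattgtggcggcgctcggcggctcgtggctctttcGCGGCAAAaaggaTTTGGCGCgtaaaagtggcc
CDC25A promoter, chr3:48188418-48188667, minus strand: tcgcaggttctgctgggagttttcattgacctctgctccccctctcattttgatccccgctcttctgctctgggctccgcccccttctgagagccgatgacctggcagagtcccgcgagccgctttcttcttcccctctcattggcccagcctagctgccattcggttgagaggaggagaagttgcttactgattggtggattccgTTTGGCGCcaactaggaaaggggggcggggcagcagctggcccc
E2F3 promoter, chr6:20401629-20401878, plus strand: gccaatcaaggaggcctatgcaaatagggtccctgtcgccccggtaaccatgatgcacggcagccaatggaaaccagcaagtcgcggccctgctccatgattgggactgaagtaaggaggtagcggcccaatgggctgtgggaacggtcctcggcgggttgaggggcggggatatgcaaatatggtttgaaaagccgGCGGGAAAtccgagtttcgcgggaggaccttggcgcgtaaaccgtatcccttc
In E2F1 a word lay 33 to 26 bases before the start on the opposite strand and another 20 to 13 bases before it, in CDC25A 1 word lay 44 to 37 bases before the start, and in E2F3 1 word lay 53 to 46 bases before it on the opposite strand. Of the 3 genes, E2F1 and CDC25A had more counts in the SGC-CLK-1-labelled libraries and E2F3 did not, as described below.

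The transcripts of these genes share most of their exons, and the exons that tell the main ones apart are shown here from hg38 with the transcript models of GENCODE 44. CDK2-204 carries a coding exon of 144 bases that CDK2-201, the reference transcript, lacks. CDK4-202 lacks a coding exon of 168 bases that is in CDK4-201, and its coding sequence is annotated as 333 bases against 909. CDC25A-202 lacks a coding exon of 120 bases that is in CDC25A-201.
CDK2 exon in CDK2-204, chr12:55970598-55970741, plus strand: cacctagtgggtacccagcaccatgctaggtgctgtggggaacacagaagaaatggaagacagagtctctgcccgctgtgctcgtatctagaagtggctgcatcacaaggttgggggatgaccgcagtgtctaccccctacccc
CDK4 exon absent from CDK4-202, chr12:57750923-57751090, minus strand: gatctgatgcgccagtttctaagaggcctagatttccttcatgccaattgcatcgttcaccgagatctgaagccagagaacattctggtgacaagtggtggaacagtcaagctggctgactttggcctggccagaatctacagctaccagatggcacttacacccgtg
CDC25A exon absent from CDC25A-202, chr3:48180721-48180840, minus strand: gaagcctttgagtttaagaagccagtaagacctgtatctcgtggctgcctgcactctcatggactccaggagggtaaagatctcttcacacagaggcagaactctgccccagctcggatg
E2F3-201 and E2F3-202 start at different first exons and share nearly all of the rest, so that mainly the 5′ end of a read tells them apart. The coding part of the first exon of E2F3-202 is 18 bases long, and beside it stand the last 60 coding bases of the first exon of E2F3-201.
E2F3-202 first exon, chr6:20403815-20403832, plus strand: atgcccttacagcagcag
E2F3-201 first exon, chr6:20402566-20402625, plus strand: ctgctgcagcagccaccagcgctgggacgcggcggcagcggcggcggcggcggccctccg

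CCNE2, the second E cyclin gene (ENSG00000175305, chromosome 8), was, with E2F1, one of the 2 genes whose groups did not overlap as gene sums. It was counted 19, 18 and 17 times in the SGC-CLK-1-labelled libraries and 2, 3 and 6 times in the DMSO-labelled ones, which is 28.5, 49.6 and 45.6 CPM against 4.80, 5.73 and 16.1 CPM. Every SGC-CLK-1-labelled library lay above every DMSO-labelled library. The mean was 41.2 ± 11.2 CPM against 8.88 ± 6.27 (SD, n = 3 libraries each). The fitted log2 fold change was 2.13 with a standard error of 0.59, a 4.38-fold higher level, but its adjusted p was 0.121 (edgeR, quasi-likelihood F-test, adjusted by Benjamini-Hochberg over 6344 genes), so that it did not pass 0.05. At that threshold 0.236% of the gene sums passed. Without DMSO replicate 3, the highest library of its group, the log2 fold change was 2.81, or 7.03-fold (adjusted p = 0.118, edgeR). Without DMSO replicate 1 it was 1.83 (adjusted p = 0.301, edgeR). All 3 SGC-CLK-1-labelled libraries and none labelled DMSO reached the 27.2 CPM that the filter asks for in 3 libraries, so CCNE2 entered the test only through the group in which it was higher. Counting only its most abundant transcript, with no filter, an alternative chosen after seeing the data, gave an adjusted p of 0.0321 in edgeR (0.772% of genes passed in that fit), and none of the other 11 alternatives that gave a value fell under 0.05 (the largest was 0.369).

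Most counts of CCNE2 fell on a pair of transcripts with the same coding length of 1212 bases. CCNE2-201 (ENST00000308108) was counted 8, 8 and 8 times in the SGC-CLK-1-labelled libraries and 1, 1 and 1 times in the DMSO-labelled ones. CCNE2-205 (ENST00000520509) was counted 8, 7 and 8 times against 1, 1 and 2 times. The groups did not overlap for either transcript, as for 9.71% of the transcripts with at least 5 counts, which were higher without overlap, and neither reached the filter. Their counts were equal in 4 of 6 libraries and both summed to 27, and 99.1% of the exon bases of the shorter one lie in the other. The authors kept secondary alignments, so a molecule may stand under both names, and the gene sum of CCNE2 then holds more counts than molecules.

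CCNE1, the first E cyclin gene (ENSG00000105173, chr19:29811991-29824312, plus strand), was close to the limit of detection. It was counted 0, 4 and 2 times in the SGC-CLK-1-labelled libraries and 0, 2 and 0 times in the DMSO-labelled ones, and the groups overlapped. Of these 8 counts, 3 lay on CCNE1-204, annotated as a retained intron, all in SGC-CLK-1-labelled libraries, with 0, 1 and 2 counts. A difference in CCNE1 was not detectable at this depth.

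**Figure D1:**
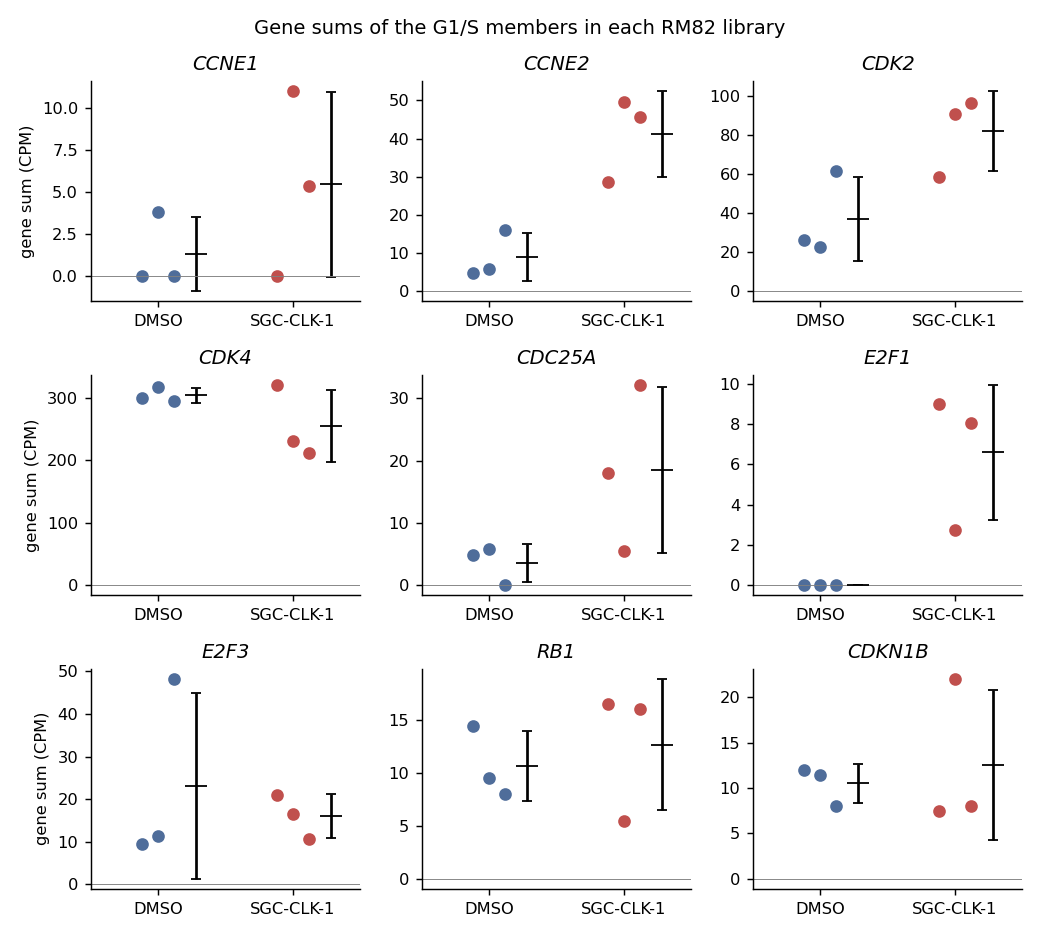
Gene sums of the 9 counted genes in CPM (vertical axes, different scales) in the 3 DMSO-labelled libraries (blue) and the 3 labelled SGC-CLK-1 (red), as points in replicate order, with the mean and SD of each group in black. The groups are apart for CCNE2 and E2F1 and share part of their range in the other 7 genes, and CDK2 and E2F3 each have 1 high DMSO-labelled library, replicate 3.

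CDK2, the kinase that E cyclins activate (ENSG00000123374, chr12:55966781-55972789, plus strand), was counted 39, 33 and 36 times in the SGC-CLK-1-labelled libraries and 11, 12 and 23 times in the DMSO-labelled ones. This is 58.5, 91.0 and 96.5 CPM against 26.4, 22.9 and 61.7 CPM. The groups overlapped, because DMSO replicate 3 lay above SGC-CLK-1 replicate 1. The log2 fold change of the gene sum was 1.07 with a standard error of 0.42, and its adjusted p of 0.257 did not pass (edgeR's quasi-likelihood test). The filter, which scales to the counts matched to genes, was reached by 3 libraries labelled SGC-CLK-1 and 2 labelled DMSO. The DMSO-labelled group alone would not have met it. Without DMSO replicate 3 the log2 fold change was 1.65 (adjusted p = 0.119, edgeR), and without DMSO replicate 2 it was 0.79 (adjusted p = 0.417, edgeR). CDK2 passed under 1 of 14 alternatives, when only its most abundant transcript was counted (adjusted p = 0.0363 in edgeR, with 4.01% of genes past the threshold). With the same counting and no filter it did not pass (adjusted p = 0.0547 in edgeR).

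The transcript CDK2-201 (ENST00000266970, 7 exons, coding length 894 bases) rose in the SGC-CLK-1-labelled libraries. Its counts were 25, 25 and 28 in those libraries and 11, 10 and 10 in the DMSO-labelled libraries, which is 37.5, 68.9 and 75.1 CPM against 26.4, 19.1 and 26.8 CPM. All 3 values of the former group lay above all 3 of the latter, as did 11.3% of the tested transcripts. The log2 fold change was 1.28 with a standard error of 0.35, a 2.43-fold higher level, with an adjusted p of 0.0326 (edgeR's quasi-likelihood test over 7840 transcripts). The 25.3 CPM that the filter asks for in 3 libraries was reached by 3 libraries labelled SGC-CLK-1 and 2 labelled DMSO. The DMSO-labelled group alone would not have met it, so CDK2-201 entered the test through the group in which it was higher. Of all transcripts tested, 1.85% were higher at this threshold and 3.95% differed in either direction, and CDK2-201 was the only one of the 3 tested transcripts of these genes among them. The call held under 6 of 12 alternatives, while the direction was the same in all 12. It was lost with no filter (adjusted p = 0.111 in edgeR), with DESeq2 (adjusted p = 0.188) and when any 1 of 4 libraries was left out, SGC-CLK-1 replicate 2 (0.149 in edgeR), SGC-CLK-1 replicate 3 (0.153), DMSO replicate 1 (0.0846) or DMSO replicate 2 (0.0926).

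The high CDK2 sum of DMSO replicate 3 came from its minor transcripts. CDK2-204, with the 144-base exon printed above, was counted 5, 3 and 2 times in the SGC-CLK-1-labelled libraries and 0, 2 and 5 times in the DMSO-labelled ones. CDK2-208 (ENST00000555408), annotated as a target of nonsense-mediated decay, had 5, 2 and 1 counts against 0, 0 and 4, and CDK2-202 had 3, 0 and 2 against 0, 0 and 4. In all 3 transcripts the counts of DMSO replicate 3 were the highest of its group. The share of CDK2 counts on CDK2-201 was 72.5 ± 7.38% in the SGC-CLK-1-labelled libraries and 75.6 ± 29.0% in the DMSO-labelled ones (SD, n = 3), and the groups overlapped. Since only CDK2-201 passed the filter, CDK2 had no test of transcript usage, and whether its transcripts changed unequally was not detectable at this depth.

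**Figure D2:**
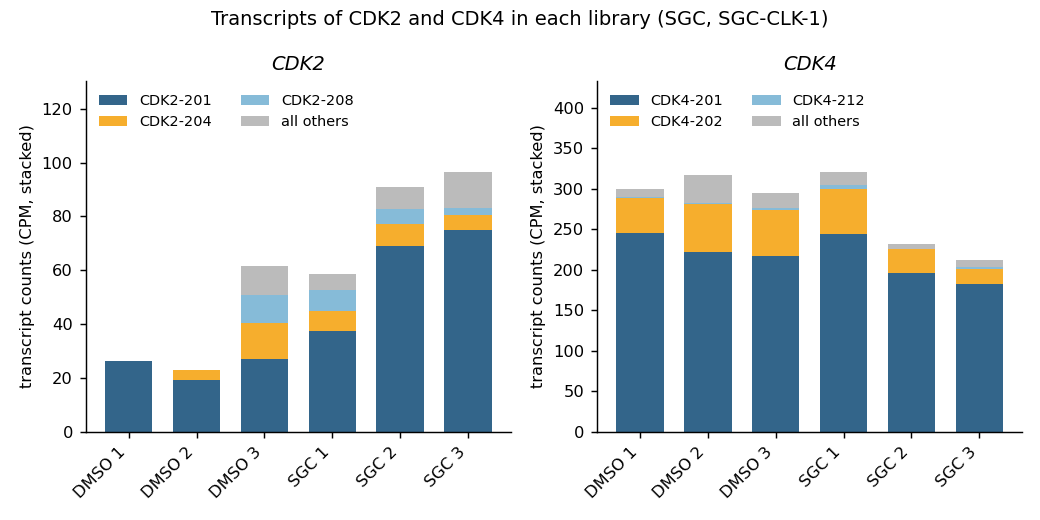
Levels of the transcripts of CDK2 (left) and CDK4 (right) in each library, in CPM stacked to the gene sum (vertical axes), with the 3 most abundant transcripts of each gene coloured and all others in grey. CDK2-201 is taller in each SGC-CLK-1-labelled library than in any labelled DMSO, DMSO replicate 3 holds more of the other CDK2 transcripts, and CDK4-201 makes up most of CDK4 in all 6 libraries.

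CDK4, the partner of the D cyclins (ENSG00000135446, chr12:57747727-57756013, minus strand), held 778 of the 1161 counts and was the only one of the 9 genes above the filter in all 6 libraries. It was counted 214, 84 and 79 times in the SGC-CLK-1-labelled libraries and 125, 166 and 110 times in the DMSO-labelled ones. This is 321, 232 and 212 CPM against 300.2, 317 and 295 CPM. SGC-CLK-1 replicate 1 was the highest of all 6 libraries and the other two of its group were the lowest, so the groups overlapped. The log2 fold change was -0.32 with a standard error of 0.22 (adjusted p = 0.562, edgeR's quasi-likelihood test), and none of 15 alternatives passed. CDK4 thus did not share the direction of CCNE2 and CDK2, and its change did not exceed the spread between libraries.

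Both main transcripts of CDK4 were tested. CDK4-201 (ENST00000257904) was counted 163, 71 and 68 times in the SGC-CLK-1-labelled libraries and 102, 116 and 81 times in the DMSO-labelled ones, with a log2 fold change of -0.11, a standard error of 0.21 and an adjusted p of 0.827 (edgeR). CDK4-202 (ENST00000312990), without the 168-base exon printed above, was counted 37, 11 and 7 times against 18, 31 and 21 times, with a log2 fold change of -0.48, a standard error of 0.33 and an adjusted p of 0.481 (edgeR). The groups overlapped for both. Without SGC-CLK-1 replicate 1 the log2 fold change of CDK4-202 was -1.09 (adjusted p = 0.139, edgeR). CDK4-202 took 13.1 ± 4.21% of the CDK4 counts in the SGC-CLK-1-labelled libraries and 17.4 ± 2.60% in the DMSO-labelled ones, and CDK4-201 took 82.3 ± 5.33% and 75.0 ± 5.98% (SD, n = 3). The test of transcript usage gave an unadjusted p of 0.735 for CDK4 (edgeR's diffSpliceDGE, Simes test), and 0.277% of the 1805 genes with such a test passed after adjustment.

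CDC25A, the phosphatase that activates CDK2 (ENSG00000164045, chr3:48157146-48188417, minus strand), was counted 12, 2 and 12 times in the SGC-CLK-1-labelled libraries and 2, 3 and 0 times in the DMSO-labelled ones. This is 18.0, 5.51 and 32.2 CPM against 4.80, 5.73 and 0 CPM. The libraries SGC-CLK-1 replicates 1 and 3 were well above the rest, whereas replicate 2 lay within the range of the other group. The gene did not reach the filter, and a fit without it gave a log2 fold change of 2.19 with a standard error of 0.88 and an adjusted p of 0.313 (edgeR). CDC25A-201 (ENST00000302506) was counted 6, 1 and 6 times against 1, 1 and 0 times, and CDC25A-202, without the 120-base exon, 4, 1 and 5 times against 1, 1 and 0 times. Because of the smaller depth of SGC-CLK-1 replicate 2, its single count of each was above the other group in CPM, so that the groups did not overlap for either transcript by a margin of less than 1 count.

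CDKN1B, which encodes the CDK2 inhibitor p27 (ENSG00000111276, chr12:12685498-12722369, plus strand), was counted 5, 8 and 3 times in the SGC-CLK-1-labelled libraries and 5, 6 and 3 times in the DMSO-labelled ones. The means were 12.5 ± 8.25 and 10.5 ± 2.15 CPM (SD, n = 3), and the groups overlapped. Of its 30 counts, 28 lay on CDKN1B-201. A change in this inhibitor was not detectable at this depth.

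E2F1, an activator of replication genes (ENSG00000101412, chr20:33675477-33686385, minus strand), was counted 6, 1 and 3 times in the SGC-CLK-1-labelled libraries and was at 0 counts in all 3 DMSO-labelled libraries. This is 9.0, 2.76 and 8.04 CPM against 0 of 1312684 counts, which allows up to 2.29 CPM over the group (3 counts). With the DMSO-labelled group set at this limit, the SGC-CLK-1-labelled group was 3.12-fold higher. The ratio fell to 1.88 without DMSO replicate 2 and lay between 1.88 and 3.79 with single libraries left out. It takes the 10 counts of the SGC-CLK-1-labelled group as exact and leaves out the spread between libraries, so an increase is not established by it. The lowest library held a single count, and the exact two-sided permutation test over the 6 libraries gave p = 0.1, the smallest that 3 against 3 can give. In edgeR without a filter the adjusted p was 0.296. The gene has 1 annotated transcript, E2F1-201, so its counts carry no ambiguity between isoforms.

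E2F3, a second activating E2F (ENSG00000112242, chr6:20401879-20493714, plus strand), did not follow E2F1. It was counted 14, 6 and 4 times in the SGC-CLK-1-labelled libraries and 4, 6 and 18 times in the DMSO-labelled ones, and DMSO replicate 3 alone had 48.3 CPM where the other 5 libraries had 9.61 to 21.0 CPM. The difference of the means was -7.03 CPM, and it turned to 5.55 CPM without DMSO replicate 3. A fit without a filter gave a log2 fold change of -0.50 with a standard error of 0.62 and an adjusted p of 0.782 (edgeR).

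RB1, the pocket protein that restrains E2F (ENSG00000139687, chr13:48303744-48599436, plus strand), was counted 11, 2 and 6 times in the SGC-CLK-1-labelled libraries and 6, 5 and 3 times in the DMSO-labelled ones. The means were 12.7 ± 6.23 and 10.7 ± 3.33 CPM (SD, n = 3). The groups overlapped, and a difference was not detectable at this depth.

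Across the 9 genes, 2 (CCNE2 and E2F1) were higher in the SGC-CLK-1-labelled libraries with no overlap between the groups and none was lower, whereas 10.1% of the gene sums with at least 5 counts were higher and 5.68% were lower in this way. For E2F1 this rests on 1 count in SGC-CLK-1 replicate 2, 2.76 CPM, which is under the 5.73 to 8.05 CPM that a count of 0 allows in a single DMSO-labelled library. In the fit without a filter, 7 of the 9 log2 fold changes were above 0, against 52.4% of 18776 genes (edgeR). Their median was 1.08 (the same with E2F1 at the ratio given above), against 0.05 over all genes. Of the 7, RB1 at 0.24 and CDKN1B at 0.13 lay within their standard errors of 0 (0.77 and 0.80). The genes were chosen with earlier results of these data known, so their directions and overlaps are not independent evidence. None of the 3 gene sums that entered the test passed after adjustment (edgeR). In bulk libraries such as these, a different share of cells in a phase of the cycle and a different amount of RNA per cell cannot be told apart. The plot of log2 fold changes sets the ways of counting side by side.

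**Figure D3:**
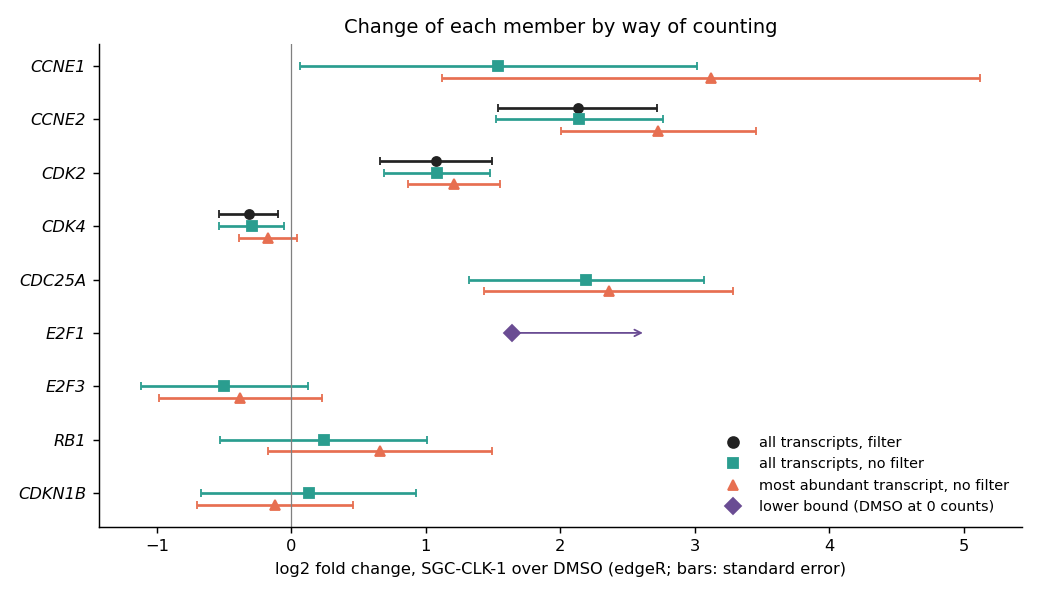
Log2 fold change of each gene, SGC-CLK-1 over DMSO (horizontal axis), from edgeR with all transcripts and the filter (black circles, 3 genes), with all transcripts and no filter (green squares) and with the most abundant transcript and no filter (orange triangles), with standard errors as bars. For E2F1 the purple diamond and arrow, marked as a lower bound, start at the ratio with DMSO set at 3 counts. They allow for no error in the SGC-CLK-1-labelled counts. CCNE2, CDK2 and CDC25A lie above 0 by more than 2 standard errors in each fit shown for them, whereas CDK4 and E2F3 lie below 0.

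Several of these genes had transcripts whose counts ran together. E2F3-201 and E2F3-202 had identical counts in 6 of 6 libraries, 7, 3 and 2 in those labelled SGC-CLK-1 and 2, 3 and 9 in the DMSO-labelled ones, and 96.5% of the bases of the shorter transcript are shared, the first exons printed in part above being the main difference. RB1-201 and RB1-209 had equal counts in 5 of 6 libraries, with 5, 1 and 3 against 2, 2 and 1 counts for RB1-201 and 4, 1 and 3 against 2, 2 and 1 for RB1-209. CDC25A-201 and CDC25A-202 were equal in 4 of 6 libraries. By contrast, CDK2-201 and CDK2-204 (91.1% shared) and CDK4-201 and CDK4-202 (91.7% shared) were equal in none. Of 6789 genes whose second transcript had at least 10 counts, 308 (4.54%) had the same counts for the 2 most abundant transcripts in all 6 libraries. The counts of E2F3, RB1, CCNE2 and CDC25A therefore give no separate measure of their main isoforms.

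**Figure D4:**
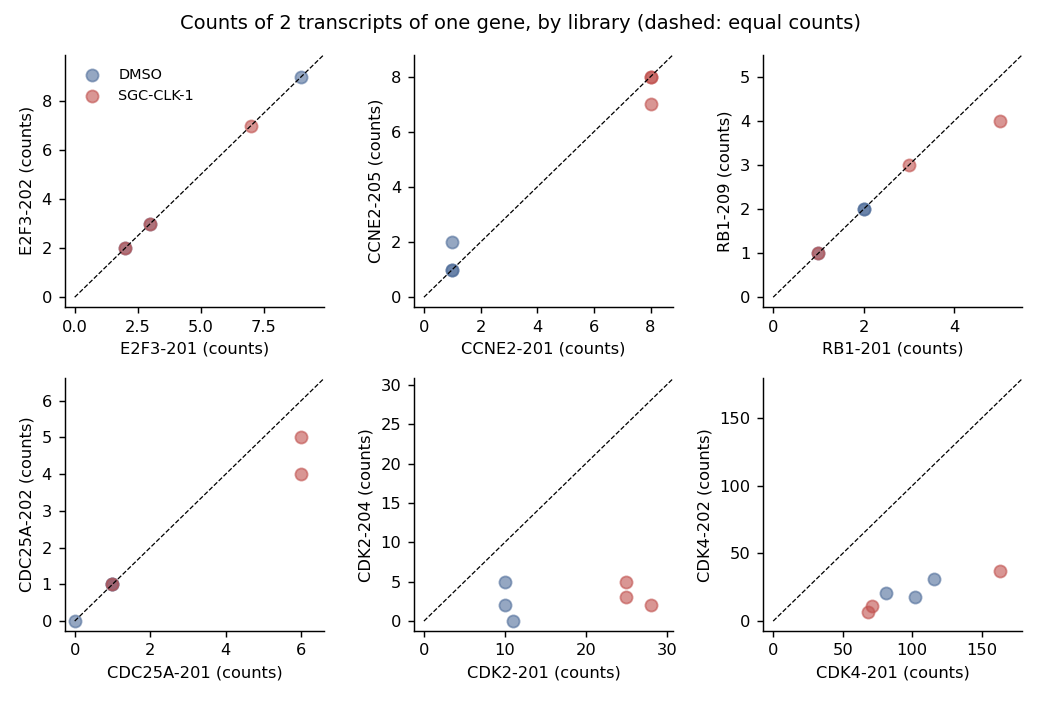
Counts of the 2 main transcripts of 6 genes against each other, 1 point per library (blue DMSO, red SGC-CLK-1, darker where points coincide), with equal counts on the dashed line. The points of E2F3, CCNE2, RB1 and CDC25A lie on the line or within 2 counts of it, and those of CDK2 and CDK4 lie far below it.

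Transcripts without a protein-coding annotation took 4.48 ± 0.44% of the counts of the 9 genes in the SGC-CLK-1-labelled libraries and 4.12 ± 2.52% in the DMSO-labelled ones (SD, n = 3), with overlap. Over all genes the shares were 24.3 ± 0.115% and 23.7 ± 0.148%, and there the groups did not overlap. The difference over all genes was 0.592 percentage points, or 0.0552 points when only tested transcripts were counted.

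On a scale of CPM per kilobase, in which each transcript is divided by its length, CDK4 was by far the most abundant of these genes in the DMSO-labelled libraries, at a level of 188.5 ± 11.3 (SD, n = 3). CDK2 followed at 18.3 ± 12.2. CCNE2 at 5.47 ± 5.77, RB1 at 5.01 ± 2.28, E2F3 at 4.91 ± 4.63 and CDKN1B at 4.36 ± 0.891 did not differ among themselves beyond their spread, and CDC25A at 1.60 ± 1.78 and CCNE1 at 0.705 ± 1.22 had lower means with ranges that reached 0, as did E2F1, at 0 in all 3. In the SGC-CLK-1-labelled libraries the order began in the same way, with CDK4 at 149 ± 38.8, CDK2 at 40.2 ± 9.81 and CCNE2 at 19.1 ± 5.23 CPM per kilobase.

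Other genes of G1/S control were counted from a list of 32, of which 17 reached the filter. None passed after adjustment (edgeR), 2 were higher and 3 lower with an unadjusted p under 0.05, where 6.89% and 6.97% of all gene sums were, and the median log2 fold change of the 17 was 0.01 against -0.00 over all genes tested. This median had no stable sign, since it was -0.37 with protein-coding transcripts only (4 of 13 tested genes higher), 0.14 with no filter (20 of 32 higher) and between -0.19 and -0.03 with single libraries left out. RBL1, the pocket protein p107, was at 157, 91.0 and 113 CPM in the SGC-CLK-1-labelled libraries and 55.2, 57.3 and 34.9 CPM in the DMSO-labelled ones. Its log2 fold change was 1.22 with a standard error of 0.32 (adjusted p = 0.0981, edgeR), and it passed with no filter (adjusted p = 0.0324, where 0.9% of genes passed) and with its most abundant transcript only (adjusted p = 0.0283), in 3 of 14 alternatives in all, whose adjusted p-values reached 0.273. The other two with the smallest p among the higher genes were CDK1, the mitotic kinase, with a log2 fold change of 0.58, and MYC, a growth-promoting factor, with 0.59. FBXW7, the ubiquitin ligase subunit that recognises phosphorylated cyclin E, was at 55.5, 60.6 and 59.0 CPM against 96.1, 126 and 148 CPM. Its log2 fold change was -1.16 with a standard error of 0.29 (adjusted p = 0.0897, edgeR). Of the 17 genes, 3 were higher and 4 lower with no overlap between the groups, where 12.2% of all tested gene sums were higher and 7.66% lower in this way.

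Of the D cyclins, partners of CDK4, none passed a test. CCND1 was the most abundant of them, at 451, 499 and 488 CPM in the SGC-CLK-1-labelled libraries and 677, 502 and 684 CPM in the DMSO-labelled ones, with a log2 fold change of -0.45 (adjusted p = 0.323, edgeR). The groups were separated only by the narrow gap to DMSO replicate 2. CCND2 was counted 10, 9 and 3 times against 2, 2 and 2 times, and CCND3 0, 0 and 1 times against 3, 4 and 4 times, both under the filter (adjusted p = 0.620 and 0.445 in edgeR without it). Cyclin H (CCNH), which pairs with CDK7 in the kinase that activates CDKs, had a log2 fold change of -0.72 (adjusted p = 0.316, edgeR). The inhibitors CDKN1A, CDKN1C, CDKN2A, CDKN2B, CDKN2C and CDKN2D were all below the filter, with at most 13 counts in any library, so that a change in them was not detectable at this depth.

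Genes that E2F factors are known to activate were followed in a list of 34, of which 29 reached the filter. Of these 26 were higher and 3 lower in the SGC-CLK-1-labelled libraries by the sign of the fit alone, with a median log2 fold change of 0.42 against -0.00 over all genes tested. The groups did not overlap for 14 higher genes and 1 lower gene, beside 12.2% and 7.66% of all tested gene sums. With an unadjusted p under 0.05, 12 were higher and 1 lower, beside 6.89% and 6.97% of all. None passed after adjustment in edgeR, the smallest adjusted p being 0.0507, while 8 of 15 alternatives called between 1 and 5 genes of the list. The 5 calls came with the most abundant transcript only, where 4.01% of all genes passed, and without a filter, where 0.9% passed, there were 4. With the most abundant transcript and no filter 4 were called, where 0.772% of all genes passed. At least 10 counts in every library gave 3 calls, beside 64 of 4353 genes. DESeq2 gave 2, beside 131 of 1303 genes with an adjusted p. Without DMSO replicate 2 there were 2, beside 21 of 6692 genes. Library size only and the replicate block gave 1 each, beside 28 and 36 of 6344 genes. MCM3 passed in 7 of 14 alternatives, MCM4 in 5 of 15, BRCA1 in 4 of 15 and MCM5 in 3 of 13. Their adjusted p-values (edgeR or DESeq2) reached 0.245, 0.304, 0.271 and 0.295. The list holds the replicative helicase genes, already known to be higher in these libraries when it was made, so its direction is not independent evidence. MCM3, a helicase subunit, was at 156, 243 and 231 CPM against 64.8, 93.6 and 42.9 CPM, with a log2 fold change of 1.53 and a standard error of 0.30. MCM5, another subunit, had a log2 fold change of 1.60 and BRCA1, a DNA repair gene, of 1.25 (adjusted p = 0.0897 and 0.0815 in edgeR). At the other end, RFC1, the large subunit of the clamp loader, was at 171, 168 and 177 CPM against 240.2, 250.3 and 231 CPM, with a log2 fold change of -0.56 (adjusted p = 0.235, edgeR) and no overlap. EZH2, a chromatin-modifying enzyme, at -0.06 lay within its standard error of 0. Leaving out SGC-CLK-1 replicate 1, the deepest library, left 21 of 29 genes higher with a median log2 fold change of 0.52.

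**Figure D5:**
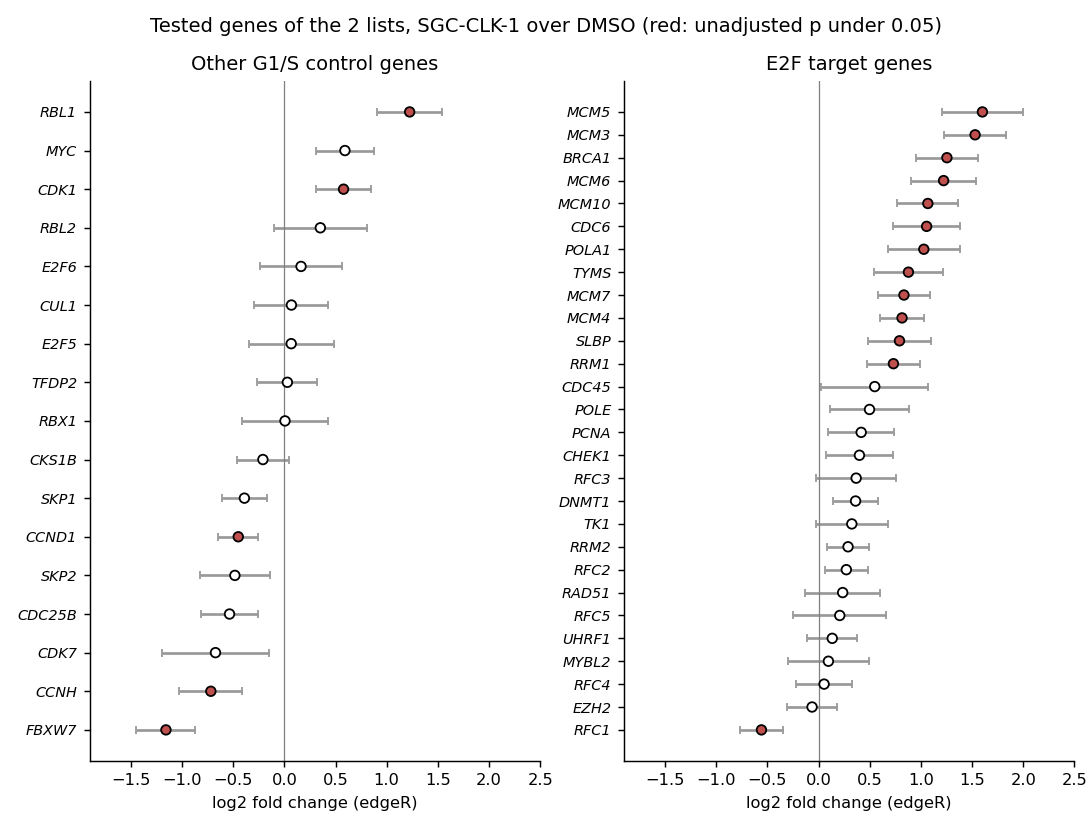
Log2 fold change with its standard error (edgeR, horizontal axis) of each tested gene of other G1/S control (left, 17 genes) and of known E2F targets (right, 28 genes), ordered by value, with unadjusted p under 0.05 in red. The left list has 9 genes above 0 and 8 below, from FBXW7 at -1.16 to RBL1 at 1.22, and on the right 26 genes lie above 0 and RFC1 and EZH2 below it.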

How the data were processed

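RNA of 6 RM82 libraries, 3 labelled SGC-CLK-1 and 3 labelled DMSO, had been sequenced as UMI-tagged cDNA on a PromethION. The authors mapped reads to human transcripts (hg38) with minimap2 (version 2.22 in the submitters' processing notes), keeping secondary alignments, and deduplicated UMIs, by UMI-tools or by homotrimer correction, with no statement of which made these files. They deposited raw UMI counts for each transcript, with a file for each library and totals between 362826 and 666702, and transcripts not listed in a library were given 0. Of 93530 identifiers, 92.3% matched GENCODE 44 without their version.

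Counts were analysed as deposited, per transcript and summed to genes, with edgeR 4.0.16 under R 4.3.3. The filter was filterByExpr (minimum count 10, total 15), the scaling TMM and the test glmQLFTest, at p under 0.05 after Benjamini-Hochberg adjustment. The fits covered all genes (6344) or transcripts (7840) and had a biological coefficient of variation of 0.244 and 0.169. Usage was tested with diffSpliceDGE. DESeq2 1.42.0, other scalings and filters, other ways of summing transcripts, the replicate number as a block and leaving out each library were alternatives. CPM values are counts scaled to a library's total, and means are given with SD over 3 libraries. Tables and figures used Python 3.11.15. On simulated counts with 200 features changed by a fold of 4, edgeR recovered 93.5% of gene sums and 98% of transcripts, with 3.61% and 3.45% of its calls wrong. The simulated counts were independent, had the same dispersion for every feature and covered all depths. These percentages are therefore not the power for the genes described here. Pairs of replicates differed by more than independent counts would (chi-square per degree of freedom 2.80 to 4.97), and none was counted as a duplicate. Molecules counted under several transcripts of a gene also raise this value, and their part in it was not tested.

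The 10 genes, the lists and the tests were chosen with earlier results of these data known. All 10 genes were to be named, with each of their transcripts that passed the filter or the most abundant one, and from each list the 3 genes with the smallest p in each direction. The named minor transcripts of CDK2, CCNE2-205, CDC25A-202, CCNE1-204, RB1-209 and E2F3-202 were chosen after their values were seen. So were the D cyclins CCND2 and CCND3, and the genes CD3G and MCM4. From the list of E2F targets, 1 tested gene is counted but neither named nor plotted, since it is not reported here. The other libraries of the series were not analysed here.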

Additional observations from a re-analysis of the deposited data

How the results depend on the processing

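The direction of CCNE2, CDK2, CDK4, CDK2-201, CDK4-201 and CDK4-202 was the same under every alternative that gave them a value. With single libraries left out, CCNE2 ranged from 1.83 to 2.81 on the log2 scale, CDK2 from 0.79 to 1.65, CDK2-201 from 1.11 to 1.61, CDK4 from -0.55 to -0.21, CDK4-201 from -0.25 to -0.01 and CDK4-202 from -1.09 to -0.20. For genes under the filter, the difference of means turned from -7.03 to as much as 5.55 CPM for E2F3 and from 2.02 to as low as -2.73 CPM for CDKN1B when single libraries were left out, and ranged from 0.13 to 5.62 CPM for RB1, 1.41 to 6.92 for CCNE1 and 8.24 to 21.6 for CDC25A.

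Gene sums past the adjusted threshold numbered 15 and moved to 28 with library size only, 169 with no filter, 64 with at least 10 counts in every library, 131 with DESeq2, 0 with protein-coding transcripts only (edgeR, where 724 had an unadjusted p under 0.05) and 148 with the most abundant transcript only. Leaving out single libraries gave 1 to 21. For transcripts, 310 calls moved to 162 with no filter, 173 with at least 10 counts in every library and 128 with DESeq2, and 81 to 363 without single libraries. Usage calls went from 5 to 1 with at least 10 counts in every library, and to between 1 and 5 without single libraries. The cause of these moves was not tested.

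Libraries of the same replicate number did not deviate together (r = 0.06, 0.02 and 0.03 across genes, which are not independent replicates), so the numbers were not taken as pairs. A fit with the replicate number as a block gave 36 gene sums and 427 transcripts, and CDK2-201 kept its call.

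For counts on transcripts without a protein-coding annotation, the difference in share over all genes was 0.592 points. It fell to 0.0552 points with tested transcripts only and lay between 0.526 and 0.672 points without single libraries. That of the 9 genes lay between -1.05 and 1.37 points, the CDK2-201 share difference between -19.1 and 9.14 points and that of CDK4-201 between 4.64 and 10.5 points. At these depths the filter asked for 27.2 CPM in at least 3 libraries, which 6 of the 9 genes did not reach.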
